A study of Mus musculus with 5 samples.

Results

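Accessible chromatin around 5 genes that respond to antigen-receptor signalling in T cells, Egr1, Egr2, Egr3, Nr4a1 and Cd5, was compared between 5 mouse thymocyte libraries. The members were the ATAC-seq peaks that met 1 window of the mm9 genome per gene. The windows measured 85 kb on chromosome 18 (Egr1), 120 kb on chromosome 10 (Egr2), 100 kb on chromosome 14 (Egr3), 85 kb on chromosome 15 (Nr4a1) and 90 kb on chromosome 19 (Cd5). Their peaks ran from 35000166 to 35048766 at Egr1, from 66950360 to 67049606 at Egr2, from 70456184 to 70500679 at Egr3, from 101063060 to 101115104 at Nr4a1 and from 10762607 to 10848392 at Cd5. Peaks of the 5 lists that overlapped by at least 1 bp were merged into regions, and 179 of all 157434 regions met these windows, which together span 480 kb.

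ATAC-seq uses a transposase that cuts and tags open DNA, so a peak marks a stretch where the enzyme could enter. All cells were of the C57BL/6 strain, and each γδ library was made from 40000 sorted cells. In 2 libraries these were CD24+ γδ T thymocytes of genotype TCRbeta KO.Sox13 ECFP KI/+, sorted for high CFP (SOX13hi) or for low to absent CFP (SOX13lo). CFP is read from a knock-in allele of Sox13, an HMG-box transcription factor gene. In 2 further libraries the same fractions came from TCRbeta KO.Sox13tg+.Sox13 ECFP KI/+ animals, which carry a Sox13 transgene in addition (Tg SOX13hi and Tg SOX13lo). The DP library held double-positive thymocytes, a stage of αβ T cell development, of wild type genotype. All 4 γδ libraries thus shared the TCRbeta knockout and the heterozygous reporter allele, and DP had neither. Cell type and genotype cannot be told apart in a comparison of γδ cells with DP. The promoter of the transgene, the number and age of the animals, and the sequencing batch were not given in the sources used here. Each group was 1 library, so every difference below is between 2 libraries, with no replicate check and no p-value.

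Signals from the T cell receptor or its γδ counterpart act through the ERK pathway, calcium and serum response factor to switch on immediate early genes within minutes. EGR1, EGR2 and EGR3 are zinc finger transcription factors of this class, and in thymocytes they take part in selection and in induction of Id3. NR4A1 (Nur77) is an orphan nuclear receptor whose expression is widely used as a readout of receptor signalling. CD5 is a surface glycoprotein that dampens receptor signalling, and its level on thymocytes tracks the strength of the signal received. In γδ thymocytes signal strength is known to influence lineage commitment and effector fate.

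The lists differed in length, from 33155 peaks in Tg SOX13lo to 113877 in DP, with 54435 in SOX13hi, 63932 in Tg SOX13hi and 67482 in SOX13lo. Median peak widths were 30 to 58 bp, and the depth of sequencing is unknown. A gene with no peak may therefore lie in open chromatin that was not called. The peak names inside the SOX13lo list read SOX13hi on every line, and its sample label was followed. Tg SOX13hi and DP have the same index in their labels, and the part of this in any result was not tested. The authors' whole-number score of each peak has no stated meaning. It was used here only to place a peak within its own list, as the percentage of that list's peaks with a lower score. Genes could not be placed on mm9, since the gene table at hand is of GRCm38, so cell type markers were not analysed here. In that table the nearest protein-coding neighbours are Reep2 and Etf1 for Egr1, Nrbf2 and Ado for Egr2, and Pebp4 and Bin3 for Egr3. They are Grasp and Atg101 for Nr4a1, and Vps37c and Cd6 for Cd5. Peaks in a window may belong to a neighbour, and none was assigned to a gene.

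Promoter sequence of 3 of the 5 members was matched in RefSeq's GRCm38.p6 table. The sequences are shown because immediate early genes are switched on through short response elements that sit close to the start of transcription. Cd5 was not described as such a gene, and its sequence is shown as that of another matched member. Each run gives the 250 bases before an annotated start, 5′ to 3′. Capitals mark matches, on either strand, to the serum response element, to the cyclic AMP response element TGACGTCA, to its variant TGCGTCA, to the AP-1 site TGANTCA or to the EGR core GCGTGGG. The serum response element is bound by serum response factor, and the variant TGCGTCA is related to sites of CREB and AP-1 family factors. Egr2 has 5 annotated starts in the table, of which 2 are shown. The first, at chr10:67535249-67535498, held no match to any of these motifs, and the other two windows not shown overlap the first one printed and hold its CCATATATGG.

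Egr2, chr10:67537619-67537868, plus strand: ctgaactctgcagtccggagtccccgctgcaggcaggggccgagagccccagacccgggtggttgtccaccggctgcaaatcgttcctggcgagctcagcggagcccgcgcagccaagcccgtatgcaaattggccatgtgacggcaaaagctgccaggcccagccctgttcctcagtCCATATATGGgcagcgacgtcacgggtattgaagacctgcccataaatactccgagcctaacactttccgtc
Egr2, chr10:67537316-67537565, plus strand: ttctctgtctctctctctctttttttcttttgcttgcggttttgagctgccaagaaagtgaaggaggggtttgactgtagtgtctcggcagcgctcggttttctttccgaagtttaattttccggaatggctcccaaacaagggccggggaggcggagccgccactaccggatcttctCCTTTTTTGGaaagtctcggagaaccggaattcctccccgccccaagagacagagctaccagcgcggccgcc
Nr4a1, chr15:101266596-101266845, plus strand: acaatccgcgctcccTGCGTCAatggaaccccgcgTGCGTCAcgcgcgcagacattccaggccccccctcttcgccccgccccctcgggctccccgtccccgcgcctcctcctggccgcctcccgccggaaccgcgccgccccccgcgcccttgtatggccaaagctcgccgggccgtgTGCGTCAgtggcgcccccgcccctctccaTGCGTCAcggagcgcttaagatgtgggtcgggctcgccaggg
Cd5, chr19:10738975-10739224, minus strand: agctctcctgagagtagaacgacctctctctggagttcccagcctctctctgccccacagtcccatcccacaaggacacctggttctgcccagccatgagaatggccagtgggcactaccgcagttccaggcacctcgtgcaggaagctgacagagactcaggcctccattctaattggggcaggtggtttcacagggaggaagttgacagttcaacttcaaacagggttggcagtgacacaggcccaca

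Each of these Egr2 windows held 1 serum response element, CCATATATGG and CCTTTTTTGG, a motif found in 1.47% of all 32851 promoter windows of this length. The Nr4a1 window held 4 copies of TGCGTCA, which occurred in 1.75% of all windows. None of the motifs searched was found in the Cd5 window. That window also had only 3 CpG dinucleotides, against 34 in the Nr4a1 window. TGACGTCA occurred in 1.55% of all windows, TGANTCA in 6.75% and GCGTGGG in 4.30%. No match overlapped another in the 4 sequences shown. These coordinates are on GRCm38.p6 and cannot be set against the mm9 peaks, so whether a given peak lies on one of these sequences was not determined.

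To describe the loci, peaks of any list that lay within 500 bp of each other were joined into elements. This grouping was chosen after seeing that wide accessible stretches were broken into different short peaks in each list. The 5 windows held 56 elements. Of these, 18 (32.1%) were present in all 5 libraries, against 21.3% of the 63657 elements of the genome. The count was also 18 when no SOX13lo peak was required, with elements still joined from the peaks of all 5 lists. Among merged regions, which are shorter, 19 of 179 were in all 5 libraries, where the background was 9.45%. A further 76 of the 179 were in DP alone, the longest list, with a background of 40.3%. Each window contained an element that held the highest-scoring peak of the window in most libraries, called the strongest element below, and each of these 5 elements was present in every library. At Egr2 and Cd5 respectively, 4 of 8 and 3 of 18 elements were in all 5 libraries. The counts were 3 of 6 at Egr1, 3 of 7 at Egr3 and 5 of 17 at Nr4a1. Distances are from the centre of the strongest element, and "before" and "after" mean toward lower and higher coordinates.

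**Figure D1:**
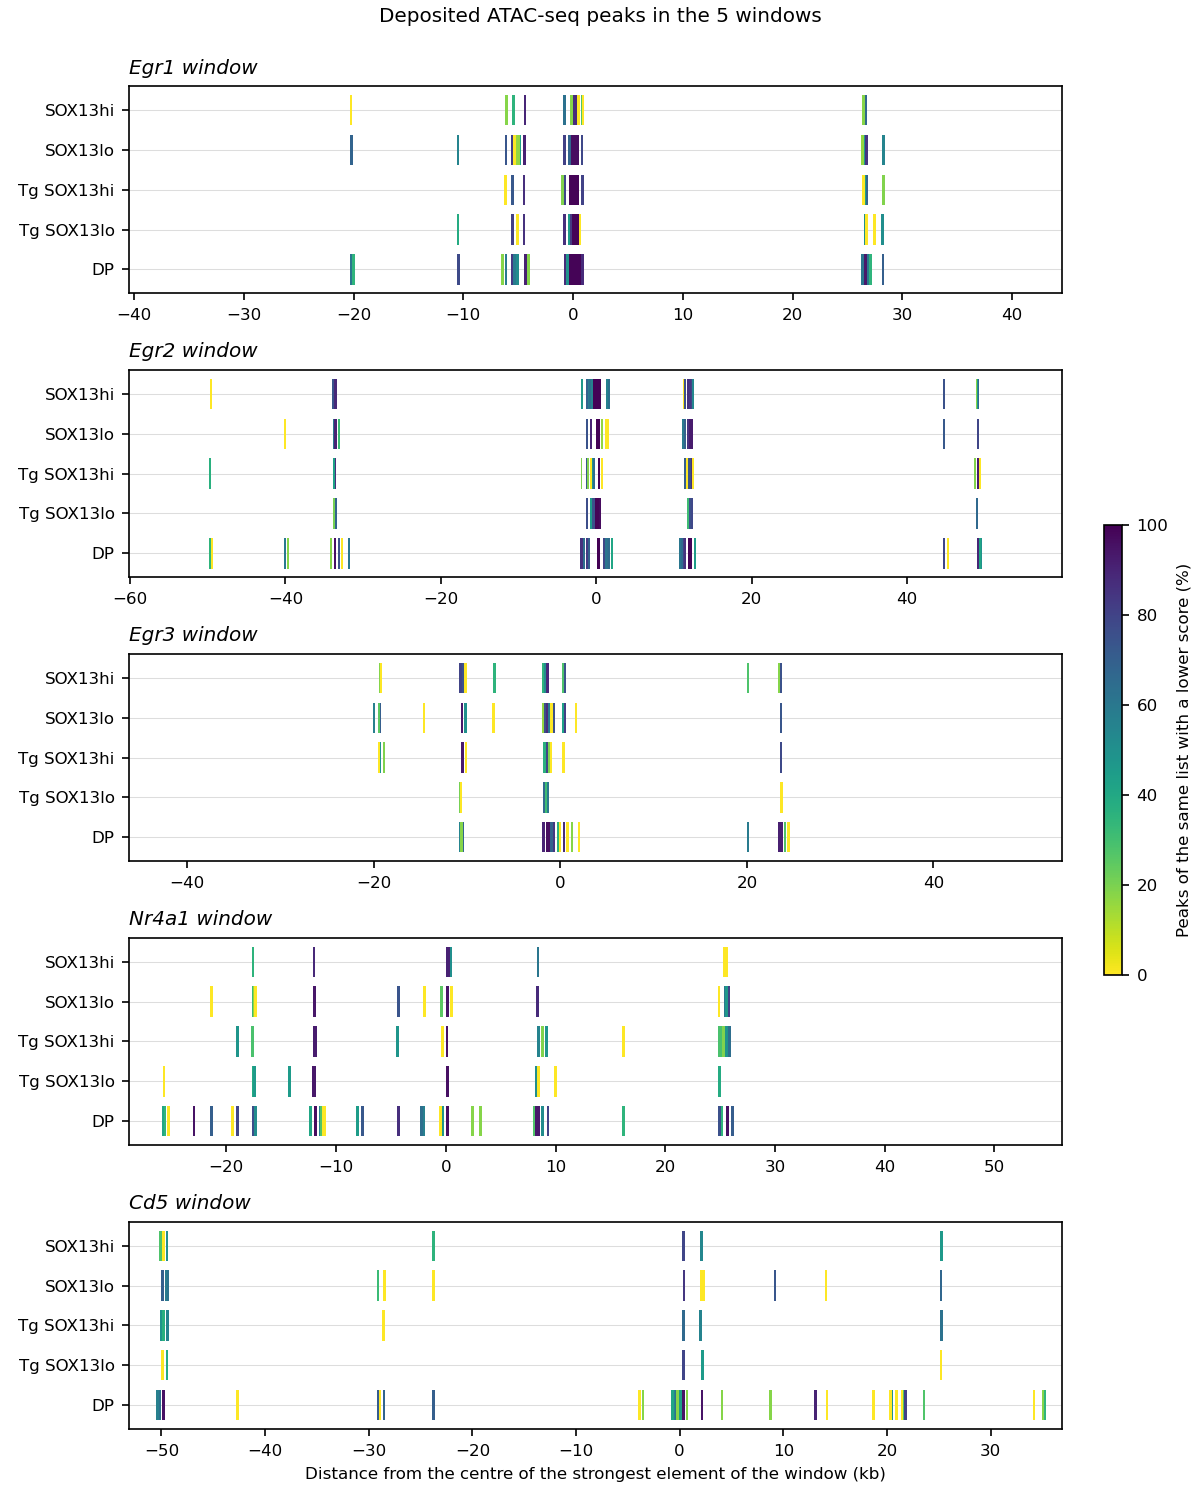
Peaks of the 5 lists in the 5 windows, 1 row per library, against distance in kb from the centre of the strongest element; colour gives the percentage of the same list's peaks with a lower score, and peaks narrower than 0.25 kb are drawn 0.25 kb wide. The strongest elements at 0 kb are filled in all rows, and DP, the longest list, has the most peaks at Egr1, Egr2, Nr4a1 and Cd5; in lists of equal length DP has 6 peaks at Cd5 against 4 to 6 in each γδ library, and 12 against 5 to 10 at Nr4a1.

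The Egr2 window held the highest-scoring accessible chromatin of the 5 loci in SOX13hi, SOX13lo, Tg SOX13hi and DP. EGR2 is the family member with a known part in NKT cell development. The window contained 21 peaks in SOX13hi, 16 in SOX13lo, 20 in Tg SOX13hi, 13 in Tg SOX13lo and 32 in DP. Its strongest element, on chromosome 10 at 66998045 to 67002116, had a best peak above 99.5% of the SOX13hi list, 99.5% of SOX13lo, 99.3% of Tg SOX13hi, 98.9% of Tg SOX13lo and 99.9% of DP. This element was thus near the top of every list. Its peaks covered 1853 bp in SOX13hi, 909 bp in SOX13lo, 406 bp in Tg SOX13hi, 1374 bp in Tg SOX13lo and 2102 bp in DP. In the whole window 14 of the 20 Tg SOX13hi peaks were at most 30 bp wide, against 5 of 21 in SOX13hi and 3 of 13 in Tg SOX13lo. The part of peak width in the 406 bp of Tg SOX13hi was not tested. Over the whole lists Tg SOX13lo was the narrower, with median widths of 41 bp in Tg SOX13hi, 49 bp in SOX13hi and 30 bp in Tg SOX13lo.

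A neighbouring Egr2 element 11.7 kb after the strongest, at 67010757 to 67012838, was also present in all lists. Its best peak stood above 86.1% of SOX13hi peaks, 92.6% of SOX13lo, 86.5% of Tg SOX13hi, 78.4% of Tg SOX13lo and 99.1% of DP. An element 33.4 kb before the strongest, at 66965903 to 66967414, had values of 88.4%, 90.5%, 86.5%, 68.4% and 95.9% in the same order. The last element shared by all, 49.1 kb after, had 67.4%, 79.3%, 93.3%, 66.3% and 89.1%, so Tg SOX13hi ranked it highest of the libraries within its own list. No Tg SOX13hi peak of this element was wider than 28 bp. Its peaks covered 287 bp in SOX13hi, 233 bp in SOX13lo, 84 bp in Tg SOX13hi, 29 bp in Tg SOX13lo and 112 bp in DP. All 4 shared Egr2 elements remained in every library when each list was limited to its 33155 highest-scoring peaks, the number in the shortest list. That list, Tg SOX13lo, was not cut, so no element could drop out of it here or at the other loci. Over the 5 windows 36 elements were in any list of equal length and 14 in all 5. In the genome 31.2% of 35056 such elements were in all 5. An element 45.0 kb after the strongest was listed in SOX13hi, SOX13lo and DP (above 74.8%, 72.5% and 78.8% of their peaks) and in neither transgenic list. It was present in the SOX13hi, SOX13lo and DP lists of equal length, and the genome share of this pattern was not counted. The best peaks of the remaining 3 Egr2 elements were above at most 60.8% of the peaks of any list that held them. These elements were in none of the lists of equal length.

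At Egr1, whose product is the best studied immediate early factor of the family, the accessible chromatin formed 6 elements. Peaks numbered 13 in SOX13hi, 17 in SOX13lo, 11 in Tg SOX13hi, 13 in Tg SOX13lo and 19 in DP. The strongest element, on chromosome 18 at 35019414 to 35021467, had its best peak above 88.1% of SOX13hi, 96.7% of SOX13lo, 98.8% of Tg SOX13hi, 99.0% of Tg SOX13lo and 98.8% of DP peaks. SOX13hi was the lowest of the 5. In SOX13hi this element was split into 7 peaks of at most 257 bp, whereas the widest peak was 729 bp in SOX13lo, 933 bp in Tg SOX13hi, 684 bp in Tg SOX13lo and 1064 bp in DP. Covered length there was 752 bp in SOX13hi and 1006 to 1503 bp in the other libraries. An element 5.2 kb before the strongest stood above 89.1%, 90.8%, 86.5%, 85.6% and 91.2% of the SOX13hi, SOX13lo, Tg SOX13hi, Tg SOX13lo and DP lists. Within each list this second Egr1 element was in a narrow range of ranks. A further element 26.9 kb after the strongest had 67.4%, 85.1%, 67.7%, 50.9% and 93.5% in that order. These 3 elements were in all 5 lists of equal length. An element 10.5 kb before the strongest was listed in SOX13lo, Tg SOX13lo and DP and in neither SOX13hi list, with best peaks above 54.9%, 38.9% and 77.4% of their lists. It stayed in the SOX13lo and DP lists of equal length. The share of all elements with this pattern was not counted, so the pattern is not set apart from the genome.

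Egr3 encodes a factor that overlaps in function with EGR2 in thymocytes. Its window held 14 peaks in SOX13hi, 18 in SOX13lo, 11 in Tg SOX13hi, 7 in Tg SOX13lo and 17 in DP. The strongest element, on chromosome 14 at 70474239 to 70478199, had its best peak above 88.6% of SOX13hi, 87.1% of SOX13lo, 78.8% of Tg SOX13hi, 66.3% of Tg SOX13lo and 96.2% of DP peaks. The transgenic fractions were the lowest within their lists. A second element, 10.4 kb before it at 70465431 to 70466146, was above 79.8% of SOX13hi, 93.5% of SOX13lo and 93.1% of Tg SOX13hi peaks. In SOX13lo and Tg SOX13hi it outranked the strongest element. The same element was above only 20.4% of Tg SOX13lo and 66.8% of DP peaks, and it was the only element of the Egr3 window shared by all libraries that dropped out of the DP list of equal length. An element 19.5 kb before the strongest, at 70456184 to 70457334, was listed in SOX13hi, SOX13lo and Tg SOX13hi (18.3%, 70.0% and 47.9%) and absent from Tg SOX13lo and DP. The genome share of this pattern was not counted. The third element shared by all, 23.9 kb after the strongest, had 74.8%, 73.2%, 78.1%, 50.9% and 91.2% in SOX13hi, SOX13lo, Tg SOX13hi, Tg SOX13lo and DP. Of the 7 Egr3 peaks in Tg SOX13lo, 0 were among the top 25% of that list. The counts were 2 of 14 in SOX13hi, 5 of 18 in SOX13lo, 3 of 11 in Tg SOX13hi and 5 of 17 in DP. By definition the share of any whole list is about 25%, and counts this small do not set Tg SOX13lo apart.

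NR4A1 is induced within the same early wave as the EGR factors. The Nr4a1 window held 8 peaks in SOX13hi, 15 in SOX13lo, 17 in Tg SOX13hi, 10 in Tg SOX13lo and 35 in DP. Of 17 elements, 15 were in DP, 5 in SOX13hi and 8 in each of the other γδ libraries. Of all elements of the genome 81.3% were in DP. In lists of equal length the window had 9 elements in DP, 8 in Tg SOX13lo (not cut), 6 in Tg SOX13hi, 5 in SOX13lo and 4 in SOX13hi. Any such list held 12 of them. In the genome the DP one held 23632 of 35056. Peaks tied at the lowest kept score were taken by chromosome name, so some counts rest on ties. Tied elements that were kept lay 4.4 and 19.2 kb before the strongest in Tg SOX13hi (score 12) and 17.4 kb before it in SOX13hi (score 10). A tied element 21.3 kb before the strongest in DP (score 23) was left out. The strongest element of the window, on chromosome 15 at 101088314 to 101089369, ranked alike in all lists. Its best peaks were above 90.9%, 94.7%, 96.0%, 96.0% and 96.5% of SOX13hi, SOX13lo, Tg SOX13hi, Tg SOX13lo and DP peaks. The element 11.7 kb before it, at 101076488 to 101077810, was close behind with 88.6%, 93.9%, 92.3%, 93.4% and 96.8%. Both were present in all 5 lists of equal length, as was an element 8.7 kb after, at 101096873 to 101098253, with 60.9%, 88.0%, 55.3%, 50.9% and 93.7%. In that last element SOX13lo and DP had higher within-list values than the other 3 libraries. An element 25.6 kb after the strongest reached 95.9% in DP and 80.5% in SOX13lo, and 64.4%, 38.9% and 18.3% in Tg SOX13hi, Tg SOX13lo and SOX13hi. SOX13hi lost it with lists of equal length.

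The Nr4a1 window also held an element listed in DP alone that ranked high there. It was a single peak of 60 bp, 22.9 kb before the strongest element, on chromosome 15 at 101065866 to 101065925, above 95.2% of DP peaks. The nearest γδ peak was 1.57 kb away in SOX13lo, 2.70 kb in Tg SOX13lo, 3.90 kb in Tg SOX13hi and 5.31 kb in SOX13hi. A second DP-only element, 7.8 kb before the strongest, was above 72.8% of DP peaks, and both stayed in the DP list of equal length. Elements 4.4 kb and 19.2 kb before the strongest reached 86.5% and 79.6% in DP and were absent from SOX13hi and Tg SOX13lo. Of these, the nearer was also listed in SOX13lo (73.8%) and Tg SOX13hi (47.9%), and the farther in Tg SOX13hi (47.9%). Genome shares of these patterns were not counted. The other 2 DP-only elements of the window were above 18.1% of DP peaks and were not in the equal-length list.

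At Cd5 the best peak of the window ranked lower within its list than at the other 4 loci in every library but Tg SOX13lo. In DP it was above 95.4% of peaks, close to the 96.2% at Egr3. In Tg SOX13lo Egr3 was the lowest (66.3%). Peaks numbered 8 in SOX13hi, 12 in SOX13lo, 7 in Tg SOX13hi, 5 in Tg SOX13lo and 33 in DP. The strongest element, on chromosome 19 at 10812349 to 10813859, had its best peak above 79.2% of SOX13hi, 84.1% of SOX13lo, 66.1% of Tg SOX13hi, 79.3% of Tg SOX13lo and 95% of DP peaks. It covered 31 bp in SOX13hi, 28 bp in SOX13lo, 166 bp in Tg SOX13hi, 162 bp in Tg SOX13lo and 498 bp in DP. In DP it was made of 7 peaks and in each γδ library of 1. A close element 2.1 kb after it, at 10815063 to 10815403, was above 94.7% of DP peaks, and above 53.7%, 0%, 55.3% and 45.4% of SOX13hi, SOX13lo, Tg SOX13hi and Tg SOX13lo peaks. The 0% in SOX13lo means that its score equalled the lowest of that list. The element 49.9 kb before the strongest, at 10762607 to 10763725, reached 95.4% in DP and 50.6%, 70.0%, 55.3% and 38.9% in the γδ libraries in the same order. All 3 elements shared by the 5 libraries at Cd5 ranked higher within the DP list than within any γδ list, as did all 5 at Nr4a1 and 15 of the 18 over the 5 windows. The genome share was 67.8%, and ranks from lists of different lengths show no change in accessibility.

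Of the 18 Cd5 elements, 10 were listed in DP alone, and 2 of these 10 were in the DP list of equal length. Over the 5 windows 15 of 56 elements were in DP alone (26.8%, exact interval 15.8 to 40.3), against 30.5% in the genome. Of the 26 elements in the DP list of equal length, 4 lacked a γδ peak (15.4%, 4.36 to 34.9), with a background of 10.5% inside that interval. Of these 4, 2 were the Nr4a1 elements given above and 2 were at Cd5. The first Cd5 element lay 13.1 kb after the strongest, on chromosome 19 at 10826212 to 10826264 (above 90.6% of DP peaks). The second lay 21.6 kb after the strongest, at 10834565 to 10834897 (80.8%). DP peaks covered 53 bp in the first and 90 bp in the second, where the widest was 34 bp. The first of them had its nearest γδ peak 0.939 kb away in SOX13lo and 10.9 to 11.0 kb away in the other γδ libraries. The second had γδ peaks no closer than 3.40 kb. In the opposite direction, an element 25.3 kb after the strongest, at 10838299 to 10838420, was present in all 4 γδ lists and absent from DP. Its best peak was above 46.4%, 67.0%, 62.5% and 0% of SOX13hi, SOX13lo, Tg SOX13hi and Tg SOX13lo peaks, and the nearest DP peak was 1.62 kb away. It kept its place in the SOX13hi, SOX13lo and Tg SOX13hi lists of equal length. The Tg SOX13lo list was not cut, so its peak could not drop out. It was 1 of the 19 elements of the 5 windows that all γδ libraries held, and in the genome 3.88% of such elements lacked a DP peak.

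**Figure D2:**
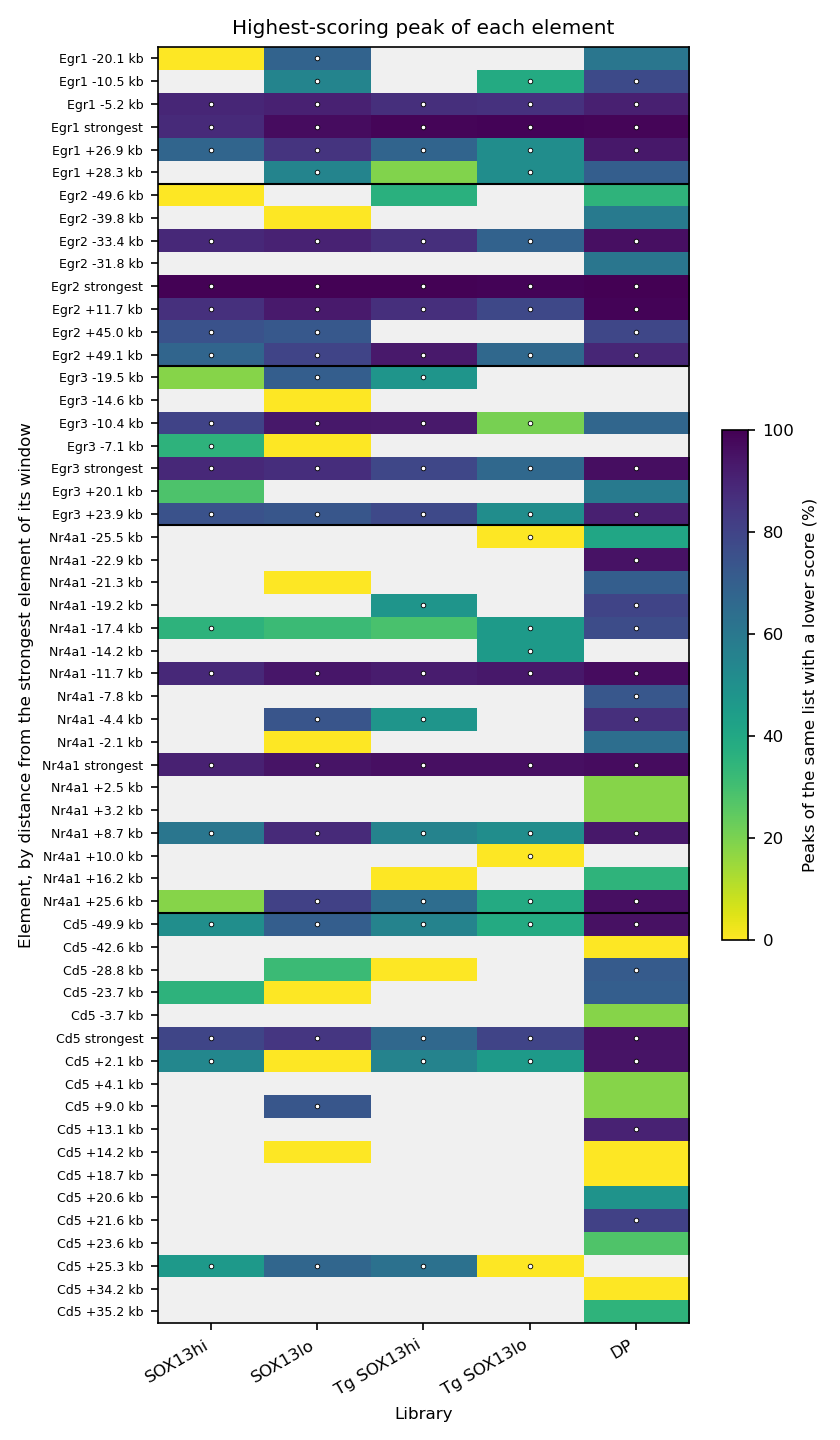
The 56 elements (rows, grouped by window and ordered along the chromosome) in the 5 libraries (columns); colour gives the percentage of the list's peaks that score below the element's best peak, pale cells have no peak, and a dot marks presence in the lists of equal length. Rows filled across all columns number 18, and rows filled in DP alone, the longest list, number 15, of which 4 have a dot (2 at Nr4a1 and 2 at Cd5); the genome share of elements in DP alone is 30.5%.

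SOX13hi and SOX13lo fractions were compared to ask whether these signal-response loci differ with Sox13 reporter level. Of the 10 elements in the top 25% of SOX13hi, 0 were absent from SOX13lo, which allows a share of up to 30%, against a background of 1.99%. Of the 14 in the top 25% of SOX13lo, 0 were absent from SOX13hi (up to 21.4%, background 3.38%). Counts of 0 among so few elements do not set these loci apart from such backgrounds. Over the 5 windows SOX13hi had 51 regions and SOX13lo 70, and 38 were shared, which is 74.5% of the SOX13hi and 54.3% of the SOX13lo regions. The shares over the whole lists were 67.0% and 50.2%. Scaled to the regions of each library, the ratio of SOX13hi to SOX13lo was 0.972 (95% interval 0.664 to 1.41). By locus it ran from 0.778 at Nr4a1 and Cd5 to 1.51 at Egr2 (17 against 15 regions, 0.710 to 3.25). No locus was 2-fold higher or lower, where 6.14% and 6.54% of 100 kb autosomal windows were. All 5 intervals included 1, so no difference was detectable at these counts. Under 8 other settings the Egr1 ratio, 0.800 (9 against 15 regions), ran from 0.429 to 0.948 and was past 2-fold in 2 of them. The Nr4a1 ratio ran from 0.661 to 1.07 and the Egr3 ratio, 0.917 as reported, from 0.834 to 1.35, so both lay on either side of 1.

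In the transgenic fractions, Egr1 had the lowest ratio of Tg SOX13hi to Tg SOX13lo, at 0.519 (0.190 to 1.44) with 10 against 9 regions. Egr3 had the highest, at 1.17 (0.337 to 5.11) with 10 against 4 regions, but 6 of 8 other settings put it below 1 (0.616 to 1.22 in all). The Egr2 ratio was 1.09 (14 against 6 regions), and 5 of 8 settings put it below 1 (down to 0.277 with only peaks wider than 30 bp). Over the 5 windows the ratio was 0.803 (0.510 to 1.28) from 55 and 32 regions. It was 0.506 with only peaks wider than 30 bp and 0.483 with base pairs covered in place of regions. Of the 66 Tg SOX13hi peaks in the windows 37 were at most 30 bp wide, against 19 of 48 in Tg SOX13lo, and the part of peak width in the lower ratios was not tested. Over the whole lists the order was the other way, with median widths of 41 bp in Tg SOX13hi and 30 bp in Tg SOX13lo. No locus passed 2-fold in merged regions, where 14.1% of windows were higher and 9.34% lower. Egr1 was past 2-fold in 5 of 8 other settings (0.439 to 0.580), Egr2 in 2, and Cd5, at 0.655 as reported, was 2.44 in the upper 50% of each list. Of 11 elements in the top 25% of Tg SOX13hi, 0 were absent from Tg SOX13lo (up to 27.3%), against a background of 16.0%. Of 7 in the top 25% of Tg SOX13lo, 0 were absent from Tg SOX13hi (up to 42.9%, background 0.474%).

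The transgene was compared within each fraction. In SOX13hi cells the Nr4a1 window had the highest ratio of transgenic to non-transgenic regions, 1.66 (0.627 to 4.86), with 14 against 7 regions. Egr2 had the lowest, 0.683 (0.312 to 1.47), with 14 against 17, and it was past 2-fold in 4 of 8 other settings (0.214 to 0.837). Egr1 (0.922) and Cd5 (0.829) were above 1 in 4 of 8 settings each, up to 1.46 and 1.52, and Egr3 (0.754) was 0.380 with only peaks wider than 30 bp. Over the 5 windows the ratio was 0.894 (0.600 to 1.34). In SOX13lo cells Nr4a1 again had the highest ratio, 1.58 (0.559 to 4.20, 8 against 12 regions), and Egr3 the lowest, 0.592 (0.144 to 1.83, 4 against 16 regions), with 1.08 (0.689 to 1.67) over the 5 windows. Across 8 other settings the Nr4a1 ratio ran from 1.35 to 2.51, past 2-fold in 2 of them, and the Egr3 ratio from 0.534 to 0.911. The ratios at Egr2 (0.947) and Cd5 (0.986) moved to either side of 1, from 0.721 to 1.87 and from 0.376 to 1.16. No locus passed 2-fold in merged regions. The background was 6.19% of windows higher and 4.97% lower in SOX13hi cells, and 9.31% and 18.6% in SOX13lo cells. No element in the top 25% of a list was absent from the list it was compared with, in either fraction and either direction. These counts were 0 of 11 in Tg SOX13hi (background 1.34%), 0 of 10 in SOX13hi (0.301%), 0 of 7 in Tg SOX13lo (1.13%) and 0 of 14 in SOX13lo (17.0%). They allow shares of up to 27.3%, 30%, 42.9% and 21.4%.

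Against DP, the members fell on both sides of 1. The ratio of SOX13hi to DP was 0.501 (0.188 to 1.14) at Nr4a1, with 7 against 35 regions, and 0.531 (0.198 to 1.22) at Cd5, with 7 against 33. It was 1.19 at Egr1 (9 against 19 regions), 1.37 at Egr2 (17 against 31) and 1.62 at Egr3 (11 against 17, 0.686 to 3.67). For SOX13lo against DP, which shares the DP library with the comparison before, the ratios were 0.644 (0.304 to 1.27) at Nr4a1 and 0.683 (0.321 to 1.36) at Cd5. They were 1.48 at Egr1, 0.909 at Egr2 and 1.77 at Egr3 (0.836 to 3.72). Nr4a1 and Cd5 were thus the loci below the scaled DP level in both, and every interval included 1. Across 8 other settings the SOX13hi ratio ran from 0.317 to 0.627 at Nr4a1 and from 0.281 to 0.766 at Cd5, past 2-fold in 4 of 8 at each. It ran from 1.21 to 2.82 at Egr3 and from 0.631 to 1.43 at Egr1, on either side of 1. For SOX13lo it ran from 0.390 to 0.845 at Nr4a1, from 0.519 to 1.07 at Cd5, where lists of equal length put it above 1, from 1.12 to 2.38 at Egr3 and from 0.719 to 1.19 at Egr2. Over the 5 windows the ratios were 0.946 (0.672 to 1.31) for SOX13hi and 0.974 (0.719 to 1.31) for SOX13lo. No locus passed 2-fold in merged regions, where 14.5% of windows were higher and 18.5% lower for SOX13hi, and 11.9% and 16.2% for SOX13lo.

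At the level of elements, some of the higher-scoring DP sites had no γδ peak. Of the 24 elements in the top 25% of DP, 6 were absent from SOX13hi (25%, exact interval 9.77 to 46.7), where the background was 20.8%, and 4 from SOX13lo (16.7%, background 16.0%). Both shares were near the background. The 3 absent from all 4 γδ lists, at Nr4a1 and Cd5, made 12.5% (2.66 to 32.4), with a background of 8.45%. Among the 17 elements in the top 10% of DP, 2 were absent from all γδ lists (11.8%, 1.46 to 36.4), and the background was 2.12%, inside that interval. Of 15 elements in the top 25% of any γδ list, 0 were absent from DP (up to 20%), against 9.00% in the genome. The counts for SOX13hi (0 of 10, up to 30%, background 6.24%) and SOX13lo (0 of 14, up to 21.4%, background 5.54%) are part of it. DP shared 39 regions of the windows with SOX13hi, which is 76.5% of the SOX13hi and 28.9% of the DP regions there, and the whole lists gave 67.2% and 26.8%.

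**Figure D3:**
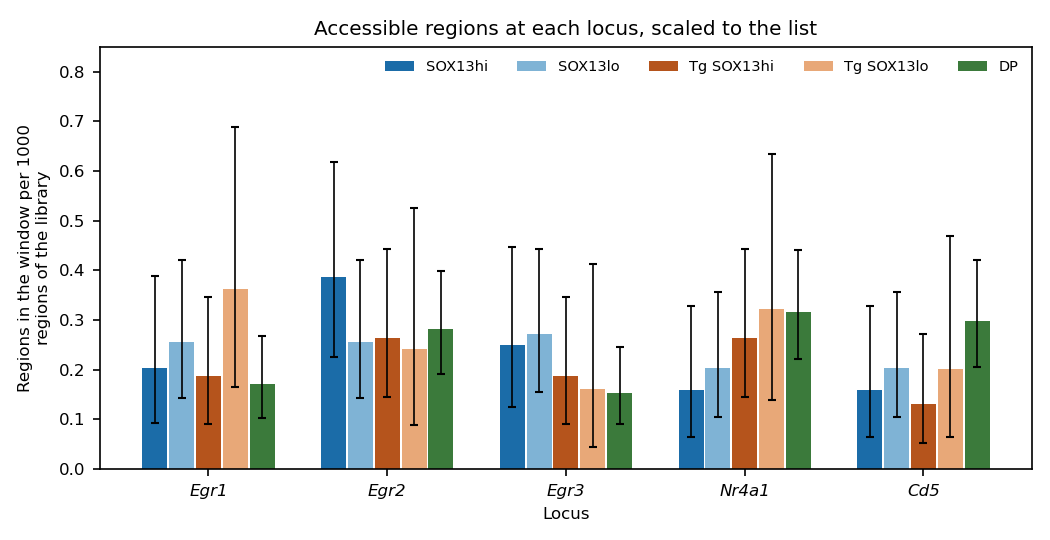
Merged regions in each window per 1000 regions of the library (bars, from 0), with exact Poisson 95% intervals that cover counting error only; colours give the 5 libraries. SOX13hi is the highest library at Egr2 (0.386) and Tg SOX13lo at Egr1 (0.363), and the intervals of all 5 libraries overlap at every locus.

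**Figure D4:**
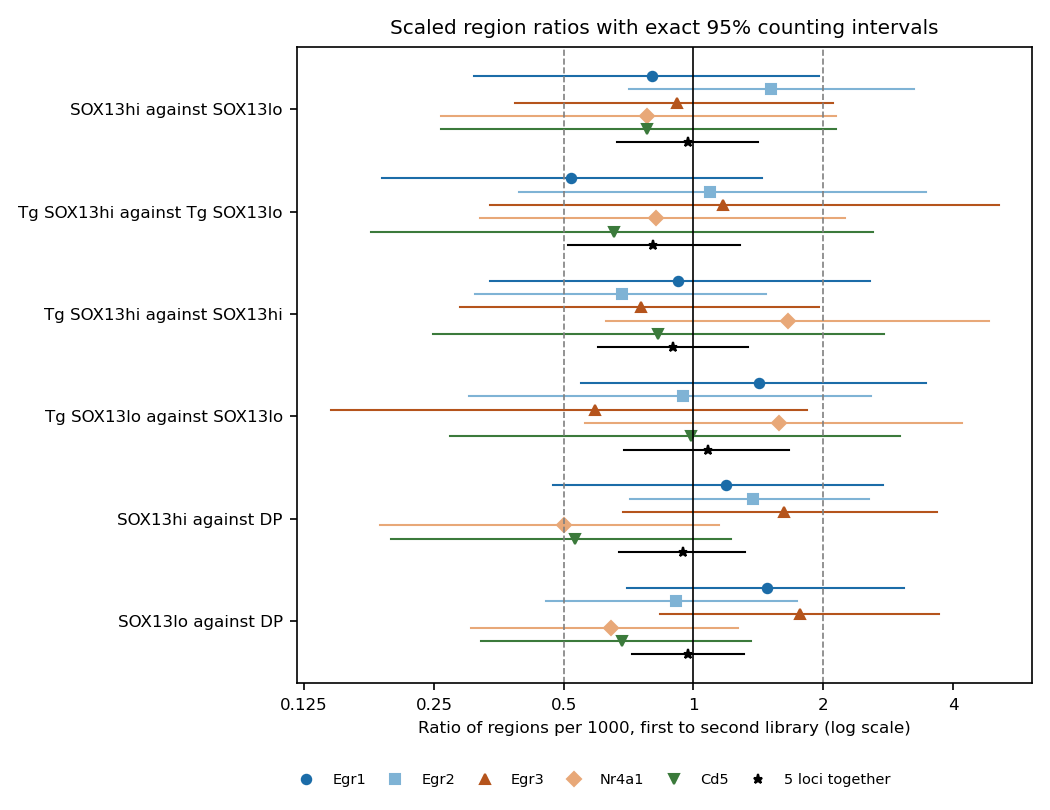
Ratio of regions per 1000 of the first to the second library (log scale) for 6 comparisons, by locus and for the 5 loci together, with exact 95% intervals from counting error; the solid line marks 1 and the dashed lines 0.5 and 2. All 30 locus ratios lie between 0.501 and 1.77, and every interval crosses 1.

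All 5 windows were dense in accessible regions in most libraries. Regions per 100 kb exceeded those of 92.1% to 99.1% of the 13215 autosomal 100 kb windows with a region at Nr4a1, 84.6% to 98.4% at Cd5 and 92.7% to 99.3% at Egr1. The ranges were 89.2% to 98.9% at Egr2 and 82.6% to 97.2% at Egr3, and the lowest value at Egr2 and Egr3 was that of Tg SOX13lo. Regions closest to the window limits lay 10.4 kb inside both ends at Egr2, with the next ones outside 76.6 kb before and 10.4 kb after. At Egr1 the nearest outside regions were 36.7 and 21.7 kb away, and at Egr3 50.6 and 22.9 kb. At Nr4a1 the first and last regions lay 3.06 and 29.9 kb inside the window, and the nearest outside 4.34 and 1.32 kb away. At Cd5 they lay 2.61 and 1.61 kb inside, and 6.82 and 1.26 kb outside.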

How the data were processed

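The authors deposited 1 ATAC-seq peak list per library on mm9, per the submitters' processing notes, with a start, an end and a whole-number score per peak. The aligner, peak caller, threshold and depth were not given in the sources used here. Neither was the meaning of the deposited score, which served only to order peaks inside a list. Start and end, deposited as other columns of the peak lists, were used as they stand, except that printed starts are 1 higher than deposited. Printed starts thus count the first base of a chromosome as 1. The number of regions is the only precision available.

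Peaks meeting the 5 windows were taken from each list. Ratios are of regions per 1000 regions of each library. Their exact intervals come from the binomial (Clopper-Pearson) 95% interval, and intervals on counts are Poisson. All cover counting error only. A count of 0 allows up to 3 counts. Background windows of 100 kb had at least 6 regions in the libraries compared, and 2-fold was the call. The functions were tested on simulated data. The members, windows and lists were chosen with earlier results of these data known. All members were to be named, with the regions held by all lists, the best-scoring region per list, and the 22 regions in the top 25% of a list and absent from another. Of these 22 regions 15 lay within an element of all 5 libraries, so elements were described instead, a change made after seeing the data. Other pathway genes and cell type markers were not analysed here, for want of an mm9 annotation. The alternatives were the upper 50% of each list, lists of equal length, peaks wider than 30 bp, joining within 150 bp, peaks or base pairs in place of regions, and windows shortened by 10 kb at both ends. In shortened lists, peaks tied at the lowest kept score were taken in order of chromosome name and position. Computation used scipy 1.17.1 and pandas 2.3.3 under Python 3.11.15, with numpy 2.4.6, and plots used matplotlib 3.10.9.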

Additional observations from a re-analysis of the deposited data

Results flagged for a closer look

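Directions of the same comparison differed between groups at 3 points, and in none was the difference tested, since each group is 1 library. The ratio of transgenic to non-transgenic regions over the 5 windows was 0.894 in SOX13hi cells and 1.08 in SOX13lo cells, but 0.860 and 0.961 in lists of equal length, both below 1. At Egr1 this ratio was 0.922 (10 against 9 regions) in SOX13hi cells and 1.42 (9 against 15 regions) in SOX13lo cells. The former was above 1 in 4 of 8 other settings, and lists of equal length gave 1.46 and 1.08, both above 1. At Egr3 the ratio of SOX13hi to SOX13lo was 0.917 (11 against 16 regions) in non-transgenic cells and 1.17 (10 against 4 regions) in transgenic cells, where 6 of 8 other settings put it below 1. Every interval on these 6 ratios included 1.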

How the results depend on the processing

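Over the 5 windows, 46 of 48 ratios under the alternatives stayed within the interval of the reported ratio. The other two were the ratio of Tg SOX13hi to Tg SOX13lo, which was 0.803 as reported, 0.506 with only peaks wider than 30 bp and 0.483 with base pairs covered. The latter is past 2-fold. Of the 240 ratios by locus, 237 stayed within their interval, and none of the reported ratios was past 2-fold, whereas 32 of these 240 were, 10 of them with peaks wider than 30 bp. The 3 outside their interval were all at Egr2. Tg SOX13hi against Tg SOX13lo was 1.09 as reported, 0.277 with peaks wider than 30 bp and 0.304 with base pairs. Tg SOX13hi against SOX13hi was 0.683 as reported and 0.214 with peaks wider than 30 bp. In that window 14 of 20 Tg SOX13hi peaks are at most 30 bp wide. The median width is 41 bp over the whole Tg SOX13hi list and 30 bp over the Tg SOX13lo list. Joining peaks within 500 bp was chosen after seeing the data. Ratios by locus then ran from 0.442 to 2.82. No paired analysis was possible because each group has 1 library and the labels carry no replicate numbers. Counts of 4 to 35 regions per window limit each locus to differences of several fold.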
